A study of Homo sapiens with 6 samples.

Results

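The cytosolic ribosomal protein genes were examined in HCC2814, an established human lung squamous cell carcinoma (LUSC) line, with and without MLST8. MLST8 is a subunit of both mTOR complexes, mTORC1 and mTORC2. In this line, the paper reports, loss of MLST8 parted mTOR from RICTOR, of mTORC2, but not from RAPTOR, of mTORC1. By the paper's western blots, phosphorylation of S6K1, a substrate of mTORC1, was unaffected. The genes were chosen by symbol, as those beginning with RPL or RPS and a digit together with RPLP0, RPLP1, RPLP2 and RPSA. S6 kinases, RPS4Y genes, read-through genes and pseudogenes were left out. Of the 17448 genes in the expression table, 86 met the rule. RPS19BP1, which encodes a binding partner of RPS19 and not a ribosomal protein, was set apart, leaving 85 genes. These comprised 43 genes of the large subunit, 31 of the small subunit, 3 of the large subunit stalk and 8 paralogs. All but RPL10L passed the filter on low counts, so 84 were tested among 12951 genes.

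RNA-seq of polyA-selected RNA covered 3 WT samples, which carried non-targeting guide RNA (sgControl), and 3 MLST8-KO samples, which carried guide RNA against MLST8 (sgMLST8). Both groups were transduced with lentiCRISPR v2, which delivers Cas9 with the guide, and were kept under antibiotic selection. The sources used here describe no cloning step for HCC2814 and do not say that samples of a group were separate cultures. The paper's western blot legend lists 3 numbered sgControl and 3 numbered sgMLST8 samples of HCC2814. It does not say whether the numbers stand for guides, lines or cultures, or whether the sequenced samples are the same ones. The p-values therefore measure the spread between these samples, which may be technical or may include differences between guides or lines. Bulk RNA-seq gives each gene as a share of a library, so that fewer transcripts of all kinds per cell would not be seen.

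Ribosomal proteins are made in nearly equal numbers and assembled on ribosomal RNA in the nucleolus into a small subunit, which reads the mRNA, and a large subunit, which joins amino acids. Most of their mRNAs begin with a C followed by a run of pyrimidines, the terminal oligopyrimidine (TOP) tract. mTORC1 is known to control the translation of TOP mRNAs through LARP1 and the 4E-BP proteins, so that these mRNAs can leave or enter polysomes with little change in their amount. RNA-seq of total cellular mRNA measures the amount and not the translation.

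The start regions of 8 named genes are shown because the TOP tract is the feature that links these mRNAs to mTOR. RPL12 and RPL36A had a TOP start and were lower in MLST8-KO samples, RPS6, RPL11 and RPLP1 had one without passing the test, and RPL36AL, RPS26 and RPL4 were lower without one. Each line gives 15 bases before and 15 bases from the RefSeq start (GRCh38.p14), 5′ to 3′ on the gene's strand, with the C and the following pyrimidines in capitals where the start qualified as TOP.
RPL12 (chr9:127451392-127451421, minus strand, lower in MLST8-KO): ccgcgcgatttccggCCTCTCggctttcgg
RPL36A (chrX:101390996-101391025, plus strand, lower): tttgcctcgcggtttCTTTCTTTCCgcgcc
RPS6 (chr9:19380222-19380251, minus strand, not past the threshold): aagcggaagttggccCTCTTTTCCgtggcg
RPL11 (chr1:23691791-23691820, plus strand, not past the threshold): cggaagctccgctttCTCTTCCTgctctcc
RPLP1 (chr15:69452803-69452832, plus strand, not past the threshold): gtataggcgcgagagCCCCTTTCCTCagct
RPL36AL (chr14:49620612-49620641, minus strand, lower): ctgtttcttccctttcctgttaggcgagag
RPS26 (chr12:56041903-56041932, plus strand, lower): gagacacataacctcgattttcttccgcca
RPL4 (chr15:66504841-66504870, minus strand, lower): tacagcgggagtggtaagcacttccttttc

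A start was counted as TOP when C at the RefSeq start was followed by at least 4 bases that were C or T. RefSeq promoter windows were matched for 68 of the 85 genes. Of the 62 canonical genes matched, 46 (74.2%) had a TOP start, against 5.14% of 27305 RefSeq genes and 7.31% of the 10561 tested genes that matched. Among the 6 matched paralogs, RPL22L1 alone had such a start. RPL36AL, RPS26 and RPL4 were among the genes without a TOP start at the annotated position, although a pyrimidine run lies within a few bases of it in each of the lines above.

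Other motifs were searched on both strands of windows from 250 bases before to 50 bases after each start, with overlaps between motifs allowed. CCGGAAG, the core of ETS factor sites, was found in 35.5% of the matched canonical genes, in 12.2% of all windows and in 22.3% of the windows of tested genes. The TATA box TATAAA was found in 8.06%, against 14% of all windows and 8.66% of those of tested genes. The E-box CACGTG, read by MYC among other factors, was found in 6.45%, against 8.77% of all windows and 12.6% of those of tested genes. AAGATGG, the core of YY1 sites, was found in 12.9%, against 7.11% of all windows and 9.22% of those of tested genes. These are matches of letters and not measured sites.

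MLST8 itself (chr16:2204248-2209416 of GRCh38, plus strand) checked the labels. Its counts were 874, 827 and 842 in WT replicates 1 to 3 and 396, 629 and 401 in MLST8-KO replicates 1 to 3. The groups did not overlap, and MLST8-KO replicate 2 kept the most MLST8 transcript of its group. The log2 fold change was -0.96 (SE 0.15, adjusted p = 0.00339, edgeR quasi-likelihood test). Transcripts of a gene cut by Cas9 can persist, so the count is not a measure of the protein.

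Total counts ran from 14381673 to 15744154 per sample. Squamous and epithelial markers such as KRT5 and TP63 were abundant in each sample. Of the markers of other cell types, PTPRC of leukocytes and CDH5 of endothelium were at 0 or 1 count, while PECAM1 of endothelium was at 14, 22 and 18 counts in WT and 9, 7 and 7 counts in MLST8-KO samples. Of the collagen genes of fibroblasts, COL1A1 was at 435 to 548 counts and COL1A2 at 9 to 36 counts. MLST8-KO replicate 1 stood apart by liver transcripts (ALB, AFP, FGA, FGB, TTR and APOB), which summed to 3634 counts there and to between 7 and 98 in the other samples. Results are therefore also given without that library. Summed over 7 epithelial and squamous markers, counts were 312005, 236022 and 191926 in WT replicates 1 to 3. In MLST8-KO replicates 1 to 3 they were 411445, 382841 and 392811. The order was opposite to that of the ribosomal protein genes, given next, in WT and the same in MLST8-KO samples. The part of these markers in the results was not tested.

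To ask how much of the mRNA pool the ribosomal protein genes took, their counts were summed. They held 4.25%, 4.63% and 4.93% of counts in WT replicates 1 to 3 and 4.43%, 3.77% and 4.31% in MLST8-KO replicates 1 to 3. Per transcript length, the same genes held 13.5%, 14.3% and 15.1% of TPM in WT and 13.9%, 12.2% and 13.5% in MLST8-KO samples. The groups overlapped by either measure, since WT replicate 1 lay below MLST8-KO replicate 1.

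The genes moved together from library to library. The median deviation of the 84 genes from their own means, in log2 CPM, was -0.01, 0.13 and 0.24 in WT replicates 1 to 3. In MLST8-KO replicates 1 to 3 it was 0.00, -0.27 and -0.05. WT replicate 1 was the lowest WT sample for 68 of the 84 genes (81%), compared with 37.9% of all genes tested. WT replicate 3 was the highest of its group for 61 genes (72.6%, against 39.5% of all genes). MLST8-KO replicate 2 was the lowest of its group for 80 genes (95.2%, against 33.2% of all genes), and no ribosomal protein gene in it lay above its own mean over the 6 samples. It was also the MLST8-KO sample that kept the most MLST8 transcript.

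**Figure D1:**
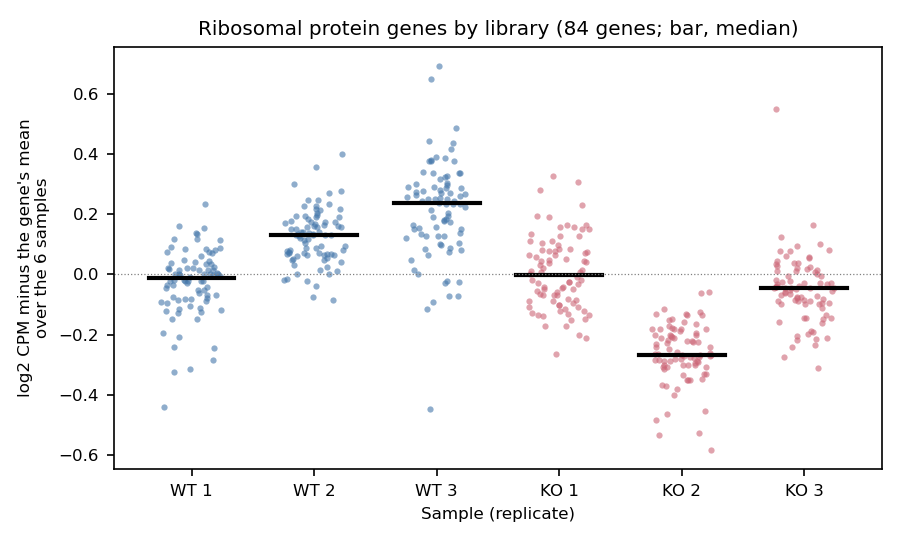
Each point is 1 of the 84 ribosomal protein genes, plotted as its log2 CPM minus its own mean over the 6 samples (vertical axis) in WT (blue) and MLST8-KO (red) replicates 1 to 3; bars are medians. The medians run from -0.01 to 0.24 in WT and from -0.27 to 0.00 in MLST8-KO samples, with WT replicate 1 and MLST8-KO replicate 1 at nearly the same level.

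Between the groups, nearly all ribosomal protein genes had lower values in MLST8-KO samples, by small amounts. The log2 fold change was negative for 81 of 84 genes (96.4%, against 49.5% of all genes tested), with a median of -0.20 against 0.00 over all genes. It ran from -0.44 for RPS15A to 0.37 for RPL3L. RPL10A (0.02) and RPS9 (0.01), which with RPL3L were named after their values were seen as the genes above 0, were close to no difference. The number of negative values was 70 with limma on TPM, 78 with upper quartile scaling and 75 without MLST8-KO replicate 2. Because the genes share their libraries, the 81 negative values are not independent observations.

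By gene, 15 of 84 (17.9%) were lower past the threshold by edgeR's quasi-likelihood test, compared with 15.7% of all genes tested. None was higher, compared with 16.3% of all genes. At an unadjusted p under 0.05, the same test gave 29 lower (34.5%, against 22.1% of all genes) and 0 higher genes (against 22.8%). DESeq2 gave 21 lower (25%, against 15.5% of all genes) and 0 higher genes (against 14.9%), and limma on log2(TPM + 1) gave 3 lower (3.57%, against 8.76%) and 0 higher (against 21.5%). At unadjusted p under 0.05, DESeq2 had 34 lower (40.5%, against 20.7% of all genes) and 0 higher (against 20.1%), and limma 11 lower (13.1%, against 13.5%) and 0 higher (against 30.2%). The share of ribosomal protein genes called lower was near that of all genes by edgeR, above it by DESeq2 and below it by limma on TPM, while none was called higher by any of them. Every MLST8-KO sample was below every WT sample for 25 genes (29.8%, against 24.2% of all genes), and above for 0 (against 24.8%).

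These counts moved with single libraries. Without WT replicate 1, 44 genes were lower (52.4%, against 20.2% of all genes) and the median was -0.28. Without MLST8-KO replicate 1, which held the liver transcripts, 8 genes were lower (against 6.5%) with a median of -0.26. Without MLST8-KO replicate 2, 1 gene was lower (against 8.35%) with a median of -0.13. The count was 3 without WT replicate 2 (against 7.97%), 8 without WT replicate 3 (against 11.9%) and 8 without MLST8-KO replicate 3 (against 11.4%).

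**Figure D2:**
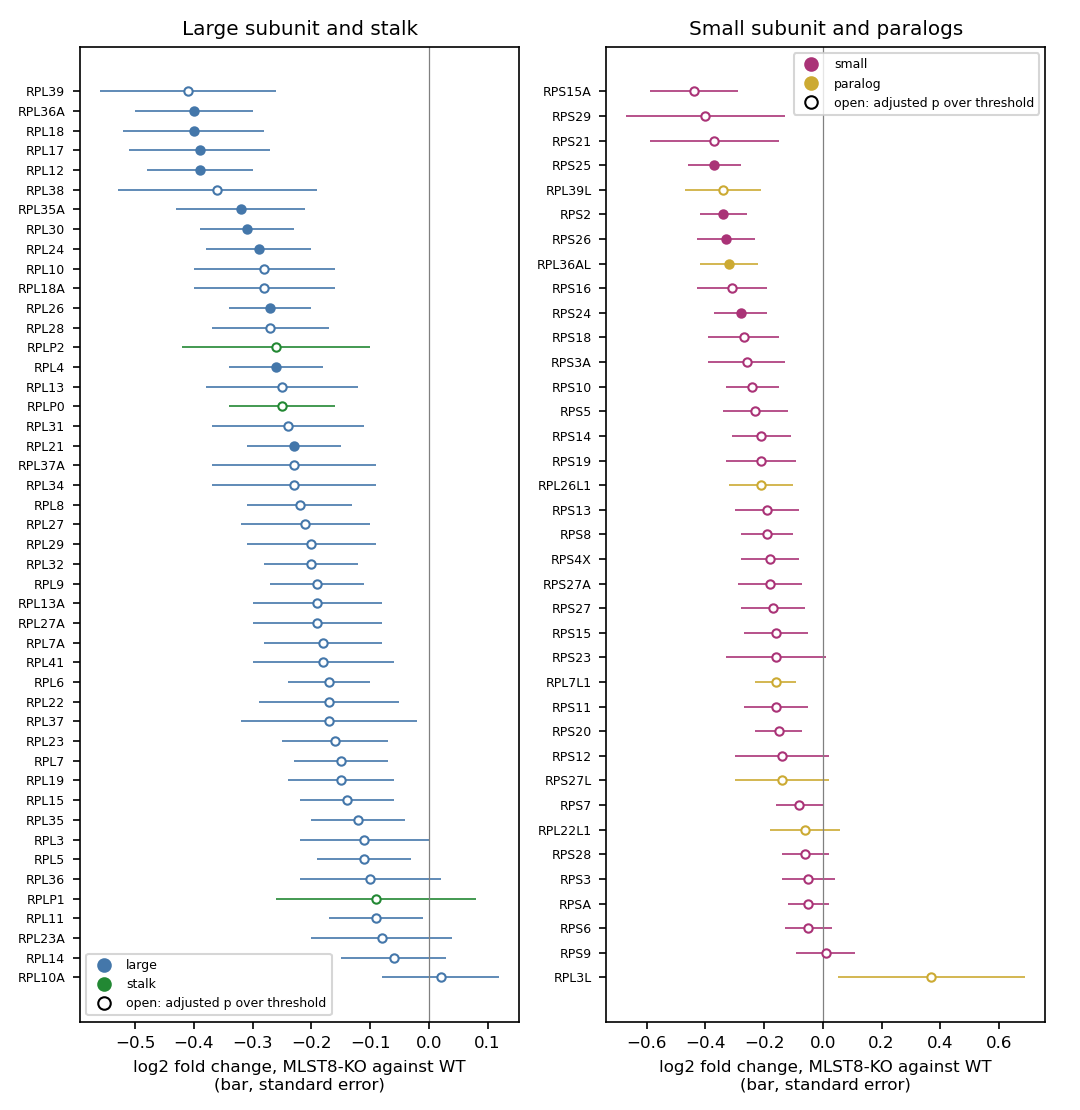
Log2 fold change of MLST8-KO against WT with its standard error (horizontal axis) for the ribosomal protein genes, large subunit and stalk on the left and small subunit and paralogs on the right. Filled points passed the threshold (15 genes, all lower). All drawn points but RPL10A, RPS9 and RPL3L lie below 0, RPL3L has the widest error, and 1 gene is not drawn.

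In the large subunit, 10 of 43 genes were lower (23.3%, against 15.7% of all genes; median log2 fold change -0.20). RPL12 (gene 6136, chr9:127447674-127451405, minus strand), which sits at the base of the stalk where elongation factors bind, had the smallest adjusted p. RPL12 was measured at 610, 640 and 661 CPM in WT replicates 1 to 3 and at 502, 435 and 522 CPM in MLST8-KO replicates 1 to 3. All MLST8-KO samples were below all WT samples, and the group means were 637 ± 25.8 and 486 ± 45.4 CPM (SD, n = 3). Its log2 fold change was -0.39 (SE 0.09, adjusted p = 0.00974). RPL12 was the gene called lower in each of the 6 fits that left out a sample, and its log2 fold change in them ran from -0.44 to -0.31.

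RPL36A (gene 6173, chrX:101390824-101396154, plus strand), a protein near the exit site for tRNA, was measured at 395, 423 and 492 CPM in WT and 364, 306 and 322 CPM in MLST8-KO samples. The gap between the groups was between WT replicate 1 and MLST8-KO replicate 1, the neighbouring values of 395 and 364 CPM. The log2 fold change of RPL36A was -0.40 (SE 0.10, adjusted p = 0.0155), and it was called in 4 of 6 fits that left out a sample. The read-through gene RPL36A-HNRNPH2, counted separately, was at 6.12 to 15.8 CPM, and adding its counts to RPL36A left the call in place. RPL30 (gene 6156, chr8:98024851-98046469, minus strand), at the interface of the subunits, was measured at 672, 692 and 709 CPM in WT and 578, 514 and 580 CPM in MLST8-KO samples. Its 3 WT values were close together and above all MLST8-KO values, with a log2 fold change of -0.31 (SE 0.08, adjusted p = 0.0152).

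RPL18 and RPL17 had changes of similar size with a wider spread in WT. RPL18 (gene 6141, chr19:48615328-48619536, minus strand) was at 560, 605 and 748 CPM in WT and 501, 426 and 524 CPM in MLST8-KO samples, with a log2 fold change of -0.40 (SE 0.12, adjusted p = 0.0281). RPL17 (gene 6139, chr18:49488453-49492523, minus strand), which lines the exit tunnel of the growing chain, was at 377, 466 and 546 CPM in WT and 366, 330 and 363 CPM in MLST8-KO samples. WT replicate 1 of RPL17 lay just above MLST8-KO replicate 1. The log2 fold change of RPL17 was -0.39 (SE 0.12, adjusted p = 0.033), and of the fits that left out a sample it was called in 1.

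RPL35A (gene 6165, chr3:197949980-197956610, plus strand), mutated in some cases of Diamond-Blackfan anaemia, was measured at 991, 1050 and 1177 CPM in WT and 984, 770 and 832 CPM in MLST8-KO samples. WT replicate 1 and MLST8-KO replicate 1 of RPL35A were nearly equal, and the log2 fold change was -0.32 (SE 0.11, adjusted p = 0.0424). The other large subunit genes past the threshold were RPL26, which lies near the tunnel exit (-0.27), RPL24, which bridges the subunits (-0.29), RPL4, which lines the tunnel (-0.26), and RPL21 (-0.23). RPL26 had the closest WT values of these, 550, 541 and 537 CPM, against 458, 423 and 470 CPM in MLST8-KO samples (adjusted p = 0.0213). The call of RPL24, RPL4, RPL21, RPL17 and RPS24 changed in 8 to 10 of 15 alternative fits, and no other gene's call changed in more.

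In the small subunit, 4 of 31 genes were lower (12.9%, against 15.7% of all genes; median log2 fold change -0.19). RPS2 (gene 6187, chr16:1962052-1964860, minus strand), near the channel where mRNA enters, was measured at 1210, 1213 and 1295 CPM in WT and 951, 927 and 1060 CPM in MLST8-KO samples. The groups of RPS2 were well apart, at 1239 ± 48.3 and 979 ± 71.1 CPM (SD, n = 3). The log2 fold change was -0.34 (SE 0.08, adjusted p = 0.0124). RPS25 (gene 6230, chr11:119015712-119018691, minus strand), known for its role in initiation at some internal entry sites, was measured at 401, 412 and 453 CPM in WT and 344, 291 and 347 CPM in MLST8-KO samples. All 3 MLST8-KO values of RPS25 were below 401 CPM, with a log2 fold change of -0.37 (SE 0.09, adjusted p = 0.0145).

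RPS26 and RPS24 are both mutated in Diamond-Blackfan anaemia. RPS26 (gene 6231, chr12:56041351-56044697, plus strand), at the channel where mRNA leaves, was measured at 308, 335 and 385 CPM in WT and 253, 269 and 295 CPM in MLST8-KO samples. Its highest MLST8-KO value was just below its lowest WT value, and the log2 fold change was -0.33 (SE 0.10, adjusted p = 0.029). RPS24 (gene 6229, chr10:78033732-78056813, plus strand) was at 359, 376 and 381 CPM in WT and 326, 272 and 320 CPM in MLST8-KO samples. WT values of RPS24 were tightly grouped, and the log2 fold change was -0.28 (SE 0.09, adjusted p = 0.0325).

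**Figure D3:**
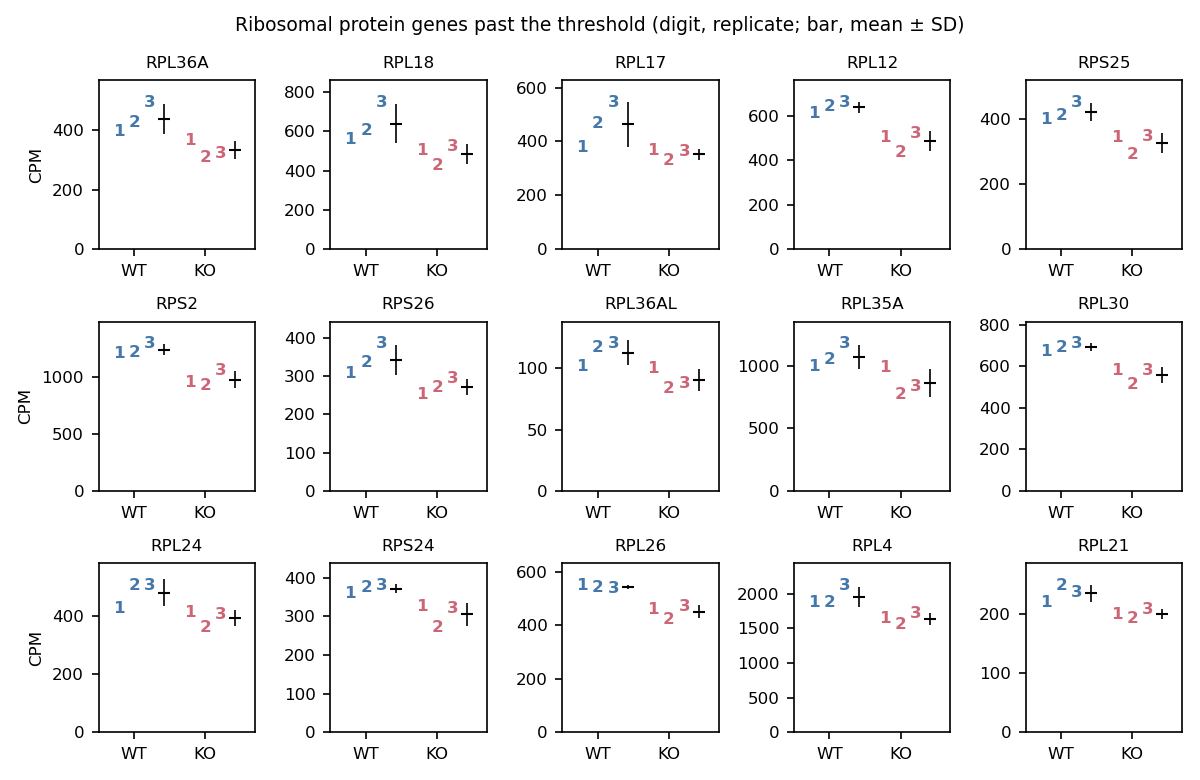
CPM (vertical axes, from 0) of the 15 ribosomal protein genes past the threshold in each sample; blue digits are WT and red digits MLST8-KO replicates, and bars are means with SD (n = 3). In each panel all MLST8-KO samples lie below all WT samples, with the narrowest gap between WT replicate 1 and an MLST8-KO sample in genes such as RPL35A and RPL17.

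RPS15A had the most negative log2 fold change of all 84 genes, -0.44 (SE 0.15), without passing the threshold (adjusted p = 0.0519). It is named for its place at the end of the range. RPS15A was measured at 385, 471 and 563 CPM in WT and 416, 287 and 346 CPM in MLST8-KO samples, so that the groups overlapped through WT replicate 1. RPL39, a small protein of the exit tunnel, was at 338, 360 and 417 CPM in WT and 348, 220 and 270 CPM in MLST8-KO samples, with a log2 fold change of -0.41 (SE 0.15, adjusted p = 0.056). DESeq2 called both genes lower (adjusted p = 0.0114 for RPS15A and 0.0148 for RPL39). Of the fits that left out a sample, 2 called each gene lower, those without WT replicate 1 and without MLST8-KO replicate 1. WT replicate 1 was the lowest WT sample for both genes. Without it, RPS15A had -0.56 (adjusted p = 0.00476) and RPL39 had -0.48 (adjusted p = 0.0204). With 1 sample left out, log2 fold changes ran from -0.58 to -0.29 for RPS15A and from -0.60 to -0.27 for RPL39.

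RPS6, the substrate that gives S6 kinase its name, was measured at 759, 782 and 735 CPM in WT and 724, 680 and 799 CPM in MLST8-KO samples. The groups overlapped, and the log2 fold change was -0.05 (SE 0.08, adjusted p = 0.683). RPSA, also known as the laminin receptor precursor, had 752, 736 and 783 CPM in WT and 719, 713 and 764 CPM in MLST8-KO samples (-0.05, SE 0.07, adjusted p = 0.629). RPS3, at the mRNA entry channel, had 648, 661 and 697 CPM in WT and 679, 578 and 676 CPM in MLST8-KO samples (-0.05, SE 0.09, adjusted p = 0.657). The sign of these 3 values turned with limma on TPM, and that of RPS6 and RPSA also with upper quartile scaling.

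RPL5 and RPL11 bind MDM2 when ribosome assembly is disturbed. RPL5 was at 518, 576 and 543 CPM in WT and 531, 480 and 511 CPM in MLST8-KO samples (-0.11, SE 0.08, adjusted p = 0.318). RPL11 was at 615, 615 and 675 CPM in WT and 642, 548 and 599 CPM in MLST8-KO samples (-0.09, SE 0.08, adjusted p = 0.428). The groups overlapped for both genes, and the sign of RPL11 turned with limma on TPM.

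RPS19 and RPS14 did not pass the threshold. RPS19, the gene most often mutated in Diamond-Blackfan anaemia, was at 258, 282 and 345 CPM in WT and 283, 223 and 257 CPM in MLST8-KO samples (-0.21, SE 0.12, adjusted p = 0.192). RPS14, lost in the myelodysplastic syndrome with a deletion on the long arm of chromosome 5, was at 492, 518 and 540 CPM in WT and 472, 379 and 484 CPM in MLST8-KO samples. The groups did not overlap for RPS14, which had a log2 fold change of -0.21 (SE 0.10, adjusted p = 0.121), whereas WT replicate 1 lay among the MLST8-KO samples for RPS19.

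The stalk genes encode the acidic proteins that recruit elongation factors, and 0 of 3 passed the threshold by edgeR (median log2 fold change -0.25). RPLP0, the anchor of the stalk, was at 1513, 1510 and 1657 CPM in WT and 1361, 1153 and 1431 CPM in MLST8-KO samples. Its groups did not overlap (-0.25, SE 0.09, adjusted p = 0.0678), and DESeq2 called it lower. RPLP2 was at 429, 455 and 566 CPM in WT and 484, 302 and 422 CPM in MLST8-KO samples (-0.26, SE 0.16, adjusted p = 0.227). RPLP1 was at 694, 975 and 1045 CPM in WT and 1048, 685 and 813 CPM in MLST8-KO samples (-0.09, SE 0.17, adjusted p = 0.702). MLST8-KO replicate 1 was the highest sample of all 6 for RPLP1, and the sign of its difference turned with limma on TPM.

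To ask whether genes with a TOP start differed from those without, the canonical genes were divided by their RefSeq start. Of 46 genes with a TOP start, 9 were lower (19.6%), and their median log2 fold change was -0.23. Of 16 genes without it, 3 were lower (18.8%) with a median of -0.18, and of 15 genes not matched, 2 were lower (13.3%) with a median of -0.19. These shares lay near the 15.7% of all genes, and the difference between the sets was not tested.

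The levels of the genes were compared per length, as TPM. The 77 canonical genes had a median of 1570 TPM (quartiles 975 and 2312) against 17.5 TPM over all genes. RPL35A (5561 TPM), RPS27 (5205 TPM) and RPLP1 (4543 TPM) had the highest means. RPS23 (194 TPM) had the lowest mean of the canonical genes. RPS23 and RPL37 were counted over effective lengths of 3155 and 1411 bases, long for such small proteins, and a longer assumed transcript lowers TPM. A level also depends on how reads shared with processed pseudogenes, of which ribosomal protein genes have many, were assigned, so the order of levels is uncertain.

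Short transcripts varied somewhat more between libraries. The highest sample of a group was above the lowest by a median of 1.29 times in WT and 1.38 times in MLST8-KO samples in the 19 shortest canonical genes, and by 1.2 and 1.22 times in the 19 longest, with no test made. Effective length, the length over which a read could start, was computed from the deposited counts and FPKM. Between libraries it was offset by -16.3, 12.1 and 2.09 bases in WT replicates 1 to 3 and by 15.7, -5.3 and -8.3 bases in MLST8-KO replicates 1 to 3. In the 19 shortest canonical genes (186 to 377 bases), WT replicate 1 lay below the mean of the other WT samples by a median log2 CPM difference of -0.32. In the 19 longest (811 to 4720 bases) this difference was -0.18. The median log2 fold change was -0.23 in the shortest and -0.17 in the longest genes, and -0.34 and -0.27 without WT replicate 1. RPS29, the shortest gene, named after its values were seen, was at 66.9, 117 and 143 CPM in WT and 114, 60.6 and 73.4 CPM in MLST8-KO samples. Across the 77 genes the correlation of effective length with the position of WT replicate 1 was weak (Spearman's rho 0.23, Pearson's r 0.16); the genes share libraries and are not independent. The part of fragment length in the results was not tested.

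**Figure D4:**
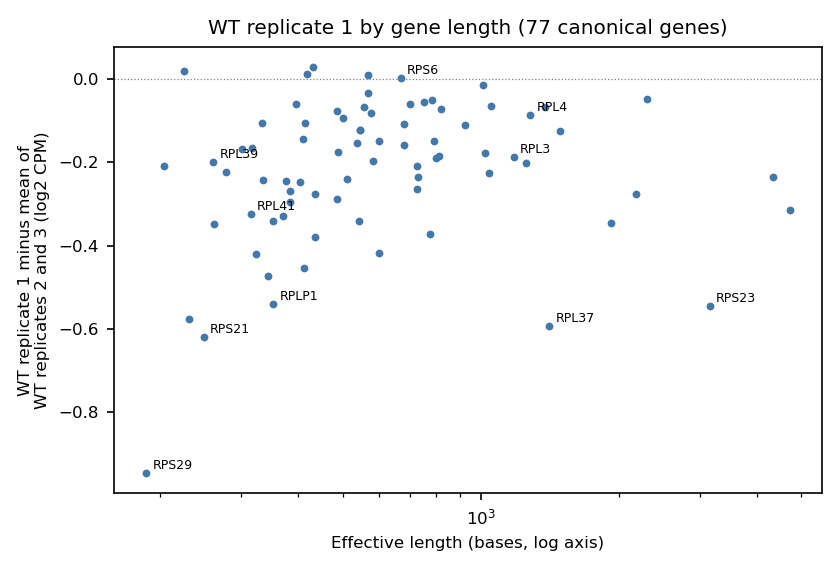
WT replicate 1 minus the mean of WT replicates 2 and 3 in log2 CPM (vertical axis) against effective length in bases (horizontal log axis) for 77 canonical ribosomal protein genes. Most points lie below 0. The shortest gene, RPS29, is the lowest, while RPL37 and RPS23 are low at 1411 and 3155 bases.

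Paralogs of 8 canonical genes were measured because exchange of a paralog would change the composition of the ribosome. Of the 7 paralogs tested, 1 was lower (14.3%, against 15.7% of all genes; median log2 fold change -0.16). This was RPL36AL (gene 6166, chr14:49618519-49620685, minus strand), whose product is nearly identical to that of RPL36A, so that assignment of reads between them is uncertain. RPL36AL was measured at 101, 117 and 120 CPM in WT and 100, 83.4 and 87.6 CPM in MLST8-KO samples. WT replicate 1 and MLST8-KO replicate 1 of RPL36AL differed by about 1 CPM, and the log2 fold change was -0.32 (SE 0.10, adjusted p = 0.0339).

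RPL39L was below its WT level in all MLST8-KO samples, at 11.9, 12.3 and 9.88 CPM in WT and 8.71, 9.27 and 8.96 CPM in MLST8-KO samples, without passing the threshold (-0.34, SE 0.13, adjusted p = 0.075). RPL7L1 was at 157, 163 and 150 CPM in WT and 135, 142 and 144 CPM in MLST8-KO samples, also without overlap (-0.16, SE 0.07, adjusted p = 0.126). The groups overlapped for RPL26L1 (-0.21, adjusted p = 0.182), RPS27L (-0.14, adjusted p = 0.517) and RPL22L1 (-0.06, adjusted p = 0.699). RPL3L, known from striated muscle, was between 1.23 and 2.95 CPM in the 6 samples (0.37, SE 0.32, adjusted p = 0.396). RPL10L, known from testis, had 2, 7 and 6 counts in WT and 10, 10 and 10 counts in MLST8-KO samples and was not tested across genes.

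The ratio of each paralog to its canonical gene within a library does not depend on library scaling. By TPM, RPL36AL was at 45.1%, 47.4% and 42% of RPL36A in WT and at 47%, 47.6% and 47.6% in MLST8-KO samples. RPL22L1 was at 20.4%, 18.4% and 14% of RPL22 in WT and at 18.4%, 17.2% and 20.3% in MLST8-KO samples. The range over the 6 samples was 5.79% to 6.7% for RPL7L1, 3.65% to 4.77% for RPL26L1, 1.04% to 1.83% for RPL39L, 0.526% to 0.792% for RPS27L and 0.0902% to 0.264% for RPL3L. MLST8-KO and WT ratios overlapped in these 7 pairs, and their mean log2 ratios differed by 0.00 to 0.52 (two-sided exact permutation test, p from 0.2 to 1).

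RPL10L was at 0.0485%, 0.157% and 0.116% of RPL10 in WT and at 0.239%, 0.263% and 0.227% in MLST8-KO samples. The groups did not overlap, with a difference of 1.34 in mean log2 ratio (two-sided exact permutation test, p = 0.1, the smallest that 3 against 3 samples allow). Adjusted by Benjamini-Hochberg over the 8 pairs it was 0.8, and the ratio rested on 2 to 10 counts of RPL10L.

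**Figure D5:**
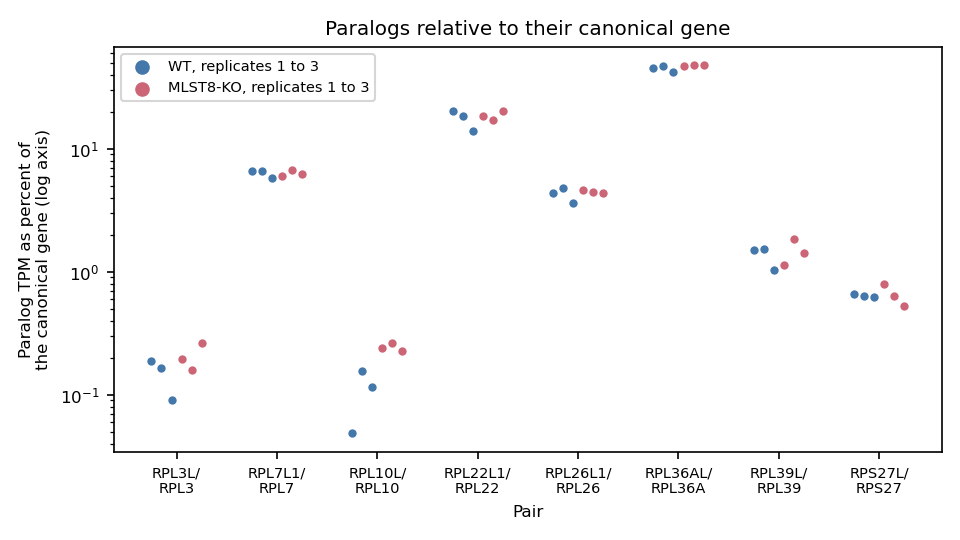
TPM of each paralog as a percent of its canonical gene (vertical log axis) for 8 pairs, with WT samples in blue and MLST8-KO samples in red, replicates 1 to 3 from left to right. The pairs span from 0.0485% (RPL10L) to 47.6% (RPL36AL), and the groups overlap in all pairs but RPL10L to RPL10.

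RPS27A and FAU encode ribosomal proteins made as fusions with ubiquitin or a ubiquitin-like protein, and FAU lies outside the symbol rule. RPS27A was at 362, 406 and 396 CPM in WT and 407, 295 and 328 CPM in MLST8-KO samples (-0.18, SE 0.11, adjusted p = 0.25). FAU had a log2 fold change of -0.27 (SE 0.14, adjusted p = 0.16).

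Among 23 other genes known for TOP mRNAs, 7 were lower (30.4%, against 15.7% of all genes) and 1 higher (against 16.3%), and the median log2 fold change was -0.23. Their median deviations were 0.00, 0.08 and 0.20 in WT and -0.08, -0.17 and -0.06 in MLST8-KO replicates 1 to 3. As for the ribosomal protein genes, they rose from WT replicate 1 to 3 and were lowest in MLST8-KO replicate 2. Unlike for those genes, WT replicate 1 lay above all MLST8-KO samples. EIF2S3, a subunit of the initiation factor that brings the initiator tRNA, had a log2 fold change of -0.45 (adjusted p = 0.0056). EIF4A2, an initiation helicase, had -0.48 (adjusted p = 0.0135). EEF1A1, which delivers aminoacyl-tRNA, fell from 15475 ± 1724 to 11894 ± 869 CPM (SD, n = 3; log2 fold change -0.38, adjusted p = 0.0175), and TPT1 had -0.31 (adjusted p = 0.0181). VIM, an intermediate filament gene of mesenchymal cells, was the higher gene (0.56, adjusted p = 0.0197) at a low level of 12.8 and 18.8 CPM.

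Of 21 chaperones of ribosomal proteins and late assembly factors, 6 were lower (28.6%, against 15.7% of all genes) and 0 higher (against 16.3%) by edgeR, and the median log2 fold change was -0.24. LTV1, a factor of small subunit maturation, had -0.44 (adjusted p = 0.00468). RPF2, which brings RPL5 and RPL11 into the large subunit, had -0.48 (adjusted p = 0.00652). ZNF622, a late factor of the large subunit, had -0.62 (adjusted p = 0.01), and NOB1, the nuclease that finishes the small subunit RNA, had -0.32 (adjusted p = 0.022). RPS19BP1, which had met the symbol rule, had -0.36 (SE 0.13, adjusted p = 0.0605).

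Of 12 genes for mTORC1 and the regulators of TOP mRNAs, 2 were lower (16.7%, against 15.7% of all genes) and 2 higher (against 16.3%), which is near the background, and the median log2 fold change was 0.01. EIF4EBP1, the translation repressor 4E-BP1, was lower (-0.42, adjusted p = 0.0219), as was CNBP (-0.28, adjusted p = 0.0157). RPTOR, the defining subunit of mTORC1, was higher (0.39, adjusted p = 0.00965), as was TIA1, an RNA-binding protein of stress granules (0.62, adjusted p = 0.00482). LARP1, the TOP-binding protein, had -0.09 (adjusted p = 0.358) and MTOR 0.09 (adjusted p = 0.482).

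Mitochondrial ribosomal proteins form a separate ribosome and are encoded by nuclear genes. Of 78 such genes, 21 were lower (26.9%, against 15.7% of all genes) and 1 higher (against 16.3%), and the median log2 fold change was -0.18. Their median deviation was 0.06, 0.08 and 0.16 in WT and -0.07, -0.15 and -0.05 in MLST8-KO replicates 1 to 3, so that in this set WT replicate 1 stayed above all MLST8-KO samples. For the cytosolic genes, the same library lay at -0.01, level with MLST8-KO replicate 1 at 0.00. The difference between the cytosolic and mitochondrial sets was not tested.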

How the data were processed

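RNA of 3 WT and 3 MLST8-KO samples of HCC2814 was sequenced on the DNBSEQ platform after polyA selection. Per the labels and the study's methods, the authors removed poor reads and aligned the rest with HISAT (GRCh38.p12) and with Bowtie2 (reference genes). They deposited estimated counts (expected counts, not scaled; 12.4% not whole), together with TPM and FPKM values, which the authors scaled by gene length and depth. A second deposited table with the authors' own fold changes and p-values was not used.

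Estimated counts were rounded, scaled by TMM, filtered with filterByExpr and tested with edgeR 4.0.16 in R 4.3.3 (quasi-likelihood, unpaired), with Benjamini-Hochberg adjustment over all 12951 genes tested and a threshold of 0.05. CPM values are TMM-scaled. SE was taken as the size of a log2 fold change over the root of its F statistic. On simulated counts for 12951 genes, 89.5% of 200 genes changed 2-fold (1 on the log2 scale) were recovered, with 6.28% false calls. The ribosomal protein genes had a median log2 fold change of -0.20 and a lowest of -0.44, and recovery of changes that small was not simulated. The simulated counts were drawn gene by gene, without a shift shared by the genes of a library. Effective lengths came from counts and FPKM. A count of 0 allows 3 counts, or 0.209 CPM in the shallowest library (counting error only). Results were recomputed with DESeq2 1.42.0, with limma 3.58.1 on log2(TPM + 1) and log2(TPM + 0.1), with other scalings and filters, with a replicate block, leaving out each sample and, chosen after seeing the data, adding read-through counts. Gene coordinates are those of GENCODE 29 (GRCh38), start regions those of RefSeq.

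The members and lists were chosen with earlier results of these data known. Genes named were the 10 called genes with the lowest and 5 with the highest fold changes, the 3 highest and 3 lowest levels, a written list of genes of known roles and paralog pairs, the 5 whose calls changed most, and up to 4 per pathway list. Some items are not reported here.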

Additional observations from a re-analysis of the deposited data

How the results depend on the processing

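The count of 15 lower genes was 3 with limma on log2(TPM + 1) and on log2(TPM + 0.1) (8.76% and 8.74% of all genes), 7 with upper quartile scaling (12%), and 1 to 44 with 1 sample left out. RPL12 was called in every one of these fits. The number of genes with every MLST8-KO sample below every WT sample, 25, was 16 with upper quartile scaling (19%, against 19.9% of all genes), 17 by TPM (20.2%, against 15.1%) and 25 to 54 with 1 sample left out, the last without WT replicate 1 (64.3%, against 31.5%). Every MLST8-KO sample was above every WT sample for 1 gene by TPM (against 32.8% of all genes) and for 2 without MLST8-KO replicate 2 (against 28.6%). No gene was called higher in any of the 16 alternatives. The median of -0.20 ran from -0.28 to -0.13 with 1 sample left out. Limma on TPM moved the median of all genes to 0.09 (log2(TPM + 1)) or 0.10 (log2(TPM + 0.1)), and that of the members to -0.09. Calls over all genes were higher in 51% by the main fit, 62% with upper quartile scaling and 71% with limma on log2(TPM + 1). Among the genes named, signs turned with limma, at both pseudocounts, for RPL11 (0.02), RPL22L1 (0.04), RPLP1 (0.01), RPS3 (0.09), RPS6 (0.06) and RPSA (0.06), and among the others, at log2(TPM + 1), for RPS7 (0.02), RPL23A (0.03), RPL14 (0.05) and RPS28 (0.04). They also turned with upper quartile scaling for RPS6 (0.01) and RPSA (0.01). With 1 sample left out, log2 fold changes ran from -0.15 to 0.05 for RPL22L1, from -0.27 to 0.04 for RPLP1, to 0.02 for RPS3 and from -0.11 to 0.01 for RPS6, and the log2 ratio differences from -0.06 to 0.21 for RPL22L1 to RPL22, from -0.03 to 0.16 for RPL26L1 to RPL26, from -0.08 to 0.27 for RPL39L to RPL39 and from -0.15 to 0.15 for RPS27L to RPS27. The cause was not tested. A replicate block gave 19 lower genes (against 16.7% of all genes), 14 of them among the 15. Same-numbered samples deviated together with correlations of 0.0966, 0.0654 and 0.146, so they were taken to share only a number, although each correlated best with its own.

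The 3 samples a group limit which small differences can pass the threshold. TPM and FPKM depend on the lengths the authors used, and counts on how reads shared with pseudogenes were assigned.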
